A study of Mus musculus with 42 samples.

Results

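The heat shock, chaperonin and ER folding genes encode proteins that help other proteins fold. The 42 genes were taken by gene symbol from a list that was drawn up with earlier results of these data known, so the list is not independent of the data. They fall into 15 cytosolic genes (the HSP70, HSP90, HSP110 and HSP40 chaperones, their cochaperones and the regulator Hsf1), 7 subunits of the cytosolic chaperonin CCT, 5 mitochondrial chaperones and 15 genes of the endoplasmic reticulum (ER), among them the regulator Xbp1. Each gene was read from the array's transcript cluster of highest mean that carried its symbol alone. That gave 39 of the 42 genes, out of 19752 genes on the array with such a cluster, and all 39 were among the 12425 genes bright enough to be tested. Hsp90ab1, Hsf1 and Hspa1b had no cluster of their own. Hspa1b shared a cluster with its near-identical copy Hspa1a, so the reading of Hspa1a may hold both. No member entered through a bright group only: 34 members were above the array median on all 42 arrays, and the lowest count was 37 arrays, for Hspa1a.

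Chaperones hold unfolded chains and release them through cycles of ATP binding, and each compartment has its own set. In the cytosol, HSF1 is the factor that switches on heat shock genes when unfolded protein accumulates. In the ER the sensors IRE1, PERK and ATF6 start the unfolded protein response, with XBP1 as the factor made after IRE1 splices its mRNA. T cells that receive a signal through CD3 enlarge and raise protein synthesis before they divide.

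The series compared regulatory (Treg) with conventional (Tconv) CD4+ T cells of NOD mice over time after KT3, a rat antibody to CD3, in mice and in culture, on 42 Affymetrix Gene 1.0 ST arrays. All mice carried the Foxp3-IRES-GFP reporter, in which GFP marks cells that express Foxp3, the lineage factor of Treg. In the mouse arm KT3 was given intravenously to females aged 8 weeks, and spleen CD4+ GFP+ Treg and CD4+ GFP- Tconv were sorted (B220-, CD8a-, CD11b-, CD11c-) at 2, 8, 24 and 72 h or from untreated mice (0 h). There were 2 arrays per cell type and time, and 1 array per cell type at 24 h after rat IgG. No IgG array was made at 2, 8 or 72 h, so KT3 and the injection itself cannot be told apart there. In the culture arm splenocytes of Foxp3-IREs-GFP+/+ mice were kept with 1.25 µg/ml KT3 for the same times, again with 2 arrays per cell type and time. Array 1 came from a female of 9 weeks and array 2 from a male of 14 weeks, so number, sex and age cannot be told apart there. The 2 arrays of a culture group therefore come from different animals. No culture array after 0 h was without KT3, so KT3 and time in culture cannot be told apart. In mice each array's label names 1 mouse but not whether the 2 arrays of a group stand for different mice. The spread within a mouse group may therefore not hold that between mice. The p-values use 1 spread per gene taken over all groups, mouse and culture together. In mice, array 1 of each group was single-sorted except Tconv at 8 h, and array 2 was double-sorted except Tconv at 8 h and Treg at 24 h, so sort and array number largely coincide.

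Foxp3 fitted the cell type in every title. In mice its log2 intensity was 11.30 to 12.26 in Treg and 7.02 to 7.76 in Tconv. The culture Treg are labelled GFP-, but their Foxp3 was 11.52 to 12.34, and they are called Treg here by their titles. Array 1 of the Tconv culture at 0 h stood apart: its interquartile range of log2 intensity was 1.645, against 2.097 to 3.208 on the other 41 arrays, and its mean correlation with the others was 0.511. Array 1 of the Tconv culture at 8 h came next, with an interquartile range of 2.097 and a mean correlation of 0.794, where the other 40 arrays had 0.861 or more. The 0 h array enters every Tconv culture difference from 0 h. Through the spread that all groups share it also bears on the tests of the other groups, so results are given with and without it where the count of calls moved by over 1.5 times. Markers of other cells were higher on array 1 than on array 2 in mice: the mean of the B cell markers was 7.06 to 8.30 on Treg arrays numbered 1 and 5.47 to 5.88 on those numbered 2, and 6.40 to 6.97 and 5.23 to 5.41 on the Tconv arrays. The double-sorted array 1 of Tconv at 8 h gave 6.97. Single-sorted arrays numbered 2 gave 5.23 in Tconv at 8 h and 5.54 in Treg at 24 h. The part of the sort was not tested. On Treg array 1 these markers also moved with time: B cell markers averaged 8.30 at 8 h, against 7.21 at 0 h, and neutrophil markers 8.68 at 8 h, against 6.55 at 0 h. On Treg array 2 B cell markers averaged 5.47 at 8 h, against 5.81 at 0 h, and neutrophil markers 5.71 at 8 h, against 5.86 at 0 h, so neither was higher there at 8 h. The median folding gene differed between 8 and 0 h by 1.08 on Treg array 1 and by 1.21 on Treg array 2. The part of B cells and neutrophils in the folding gene changes was not tested. Plasma cells are rich in ER folding proteins, and the mean of their 5 measured markers was 7.01 and 6.48 in Treg at 8 h, against 6.64 and 6.35 at 0 h. Tconv arrays gave 6.23 and 5.93 at 8 h, against 6.46 and 6.08 at 0 h. Of the 4 plasma cell markers tested, 0 were called at 8 h in either cell type in mice by limma, and their part in the ER results was not tested. In such sorted bulk samples, fewer cells with a high level and less RNA per cell cannot be told apart.

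Promoter windows were available for 33 of the 42 genes, taken from RefSeq (build GRCm38.p6) as 250 bases before to 50 after each start site, 41 windows in all. The heat shock element, searched on both strands as TTC, GAA and TTC with 2 bases between neighbours, was present in the windows of Hsph1, Hspd1 and Hspe1 and in 0.603% of all 32851 windows. The ER stress element, CCAAT and CCACG with 9 bases between them, was present in 6 of the 13 ER genes with a window (Hspa5, Hsp90b1, Creld2, Pdia6, Calr and Canx) and in 0.119% of all windows. Its shorter form, ATTGG and CCACG with 1 base between them, was present in Dnajb11 and in 0.0365% of all windows, and the XBP1 element TGACGTGG was present in 0 member windows and in 0.676% of all windows. No window of the 6 CCT genes, and 1 of the 10 cytosolic genes, held any of these. A match is a run of letters, not a known binding site or a cause, and its lack says only that these letters are not in the window. Only genes with a match were picked for display, so the windows shown do not stand for all members that changed. The windows of 6 such genes are shown 5′ to 3′, with every match to these elements in capitals: Hspe1 (chr1:55087898-55088197, plus strand) and Hsph1 (chr5:149636266-149636565, minus strand) for the heat shock element, and Hspa5 (chr2:34771840-34772139, plus strand), Hsp90b1 (chr10:86705395-86705694, minus strand), Creld2 (chr15:88819396-88819695, plus strand) and Pdia6 (chr12:17266339-17266638, plus strand) for the ER stress element.
Hspe1: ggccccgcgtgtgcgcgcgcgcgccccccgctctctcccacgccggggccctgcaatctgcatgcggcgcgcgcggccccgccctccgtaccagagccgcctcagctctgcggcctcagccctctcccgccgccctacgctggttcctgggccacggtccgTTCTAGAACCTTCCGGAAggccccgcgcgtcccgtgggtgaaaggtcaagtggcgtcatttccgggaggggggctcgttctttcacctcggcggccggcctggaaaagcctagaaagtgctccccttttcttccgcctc
Hsph1: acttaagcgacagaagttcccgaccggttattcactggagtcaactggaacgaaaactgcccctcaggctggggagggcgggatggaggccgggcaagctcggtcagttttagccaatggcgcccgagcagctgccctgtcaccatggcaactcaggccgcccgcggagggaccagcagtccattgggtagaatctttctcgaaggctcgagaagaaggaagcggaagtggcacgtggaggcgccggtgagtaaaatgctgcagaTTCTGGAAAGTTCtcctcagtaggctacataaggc
Hspa5: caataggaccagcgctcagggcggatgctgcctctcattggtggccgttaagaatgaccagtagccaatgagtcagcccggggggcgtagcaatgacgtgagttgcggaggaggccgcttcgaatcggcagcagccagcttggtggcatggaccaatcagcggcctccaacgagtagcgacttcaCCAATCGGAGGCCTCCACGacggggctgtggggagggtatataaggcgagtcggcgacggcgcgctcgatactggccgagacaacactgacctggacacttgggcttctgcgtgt
Hsp90b1: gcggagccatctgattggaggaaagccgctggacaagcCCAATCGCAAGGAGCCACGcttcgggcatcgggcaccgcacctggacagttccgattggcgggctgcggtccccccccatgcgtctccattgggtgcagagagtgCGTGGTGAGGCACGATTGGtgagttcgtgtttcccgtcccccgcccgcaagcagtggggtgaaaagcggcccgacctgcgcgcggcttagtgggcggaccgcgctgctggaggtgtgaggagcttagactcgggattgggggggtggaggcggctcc
Creld2: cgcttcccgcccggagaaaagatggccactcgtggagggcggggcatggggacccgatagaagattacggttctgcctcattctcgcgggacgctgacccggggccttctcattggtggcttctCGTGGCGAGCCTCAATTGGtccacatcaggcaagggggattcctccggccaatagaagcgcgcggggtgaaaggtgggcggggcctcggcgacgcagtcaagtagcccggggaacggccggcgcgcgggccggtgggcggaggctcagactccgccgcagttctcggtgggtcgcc
Pdia6: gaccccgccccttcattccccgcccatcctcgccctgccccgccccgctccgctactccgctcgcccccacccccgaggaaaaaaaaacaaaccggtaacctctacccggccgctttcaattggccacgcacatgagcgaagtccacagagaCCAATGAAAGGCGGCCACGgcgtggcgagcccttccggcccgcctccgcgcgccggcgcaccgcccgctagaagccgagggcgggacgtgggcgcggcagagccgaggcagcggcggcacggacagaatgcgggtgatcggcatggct

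Hspd1 and Hspe1, the mitochondrial chaperonin and its lid, lie head to head, and a window of Hspd1 on the minus strand (chr1:55087883-55088182) shares 285 bases with the window of Hspe1, so the capitals in that line are the same bases for both genes. They begin at position -89 from the start site of Hspe1 and hold 2 matches that overlap, 1 on each strand. In Hsph1 the match begins at position 16 after the start site of the window shown and at position 37 in its other window. Hsp90b1 holds 2 matches to the ER stress element, at positions -212 and -107, and Hspa5 holds 1, at position -65. The matches in Pdia6 and Creld2 begin at positions -98 and -126. No matches of different elements overlap.

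At 8 h after KT3 injection folding genes of every compartment were higher than in untreated mice, in both cell types. A gene was called where limma's moderated test gave a Benjamini-Hochberg adjusted p under 0.05 over all 12425 genes. In Treg, 24 of the 39 members were higher at 8 h than at 0 h and 0 were lower, where 6.36% of all genes tested were called higher and 3.31% lower. In Tconv, 30 were higher and 0 lower, where 14.4% of all genes were called higher and 6.54% lower. Without the Tconv culture array that stood apart, which is in none of these groups, 31 members were called higher in Treg (9.65% of all genes) and 32 in Tconv (18.9%). Those added were Hspa4, Ptges3, Cct4, Dnaja3, Hsp90b1, Canx and Pdia4 in Treg and Hsp90b1 and Pdia3 in Tconv, and where these are given as not called it is with all arrays. The median member changed by 1.17 in Treg and 1.36 in Tconv on the log2 scale, and the median of all genes by -0.02 in Treg and -0.06 in Tconv. Both arrays at 8 h lay above both at 0 h for 35 members in Treg (27.8% of all genes) and for 35 members in Tconv (32.5% of all genes). The group mean was highest at 8 h for 31 of the 39 members in Treg, against 24.0% of all genes, and for 34 members in Tconv, against 32.6% of all genes.

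**Figure D1:**
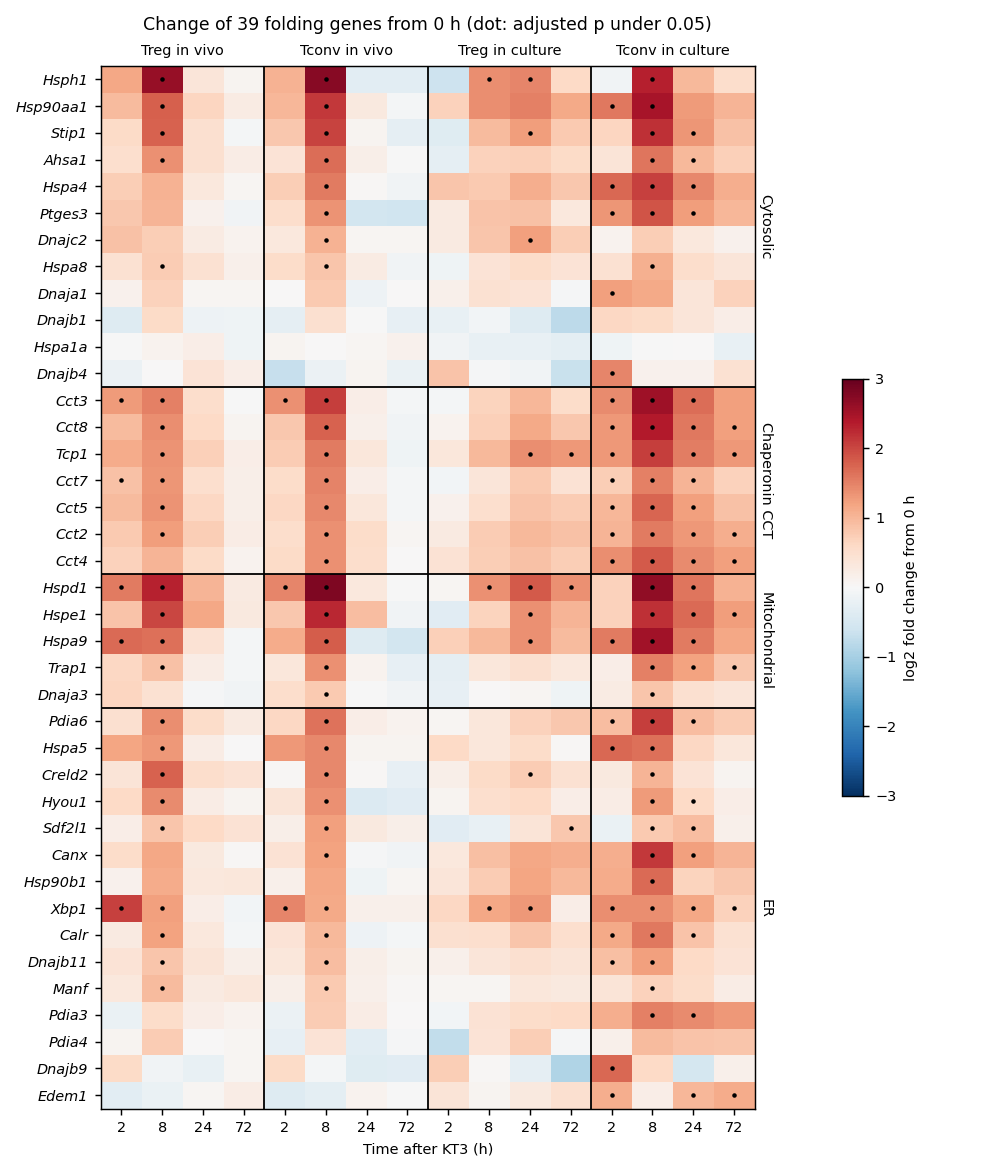
Log2 fold change from 0 h of the 39 measured members (rows, by class) at 2, 8, 24 and 72 h in Treg and Tconv, in mice and in culture (columns), in colour, with a dot where the adjusted p was under 0.05. In mice the dots gather at 8 h, with 24 in Treg and 30 in Tconv, and there are 0 at 24 and 72 h.

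Of the 12 cytosolic genes tested, 5 rose in Treg at 8 h with a median of 0.89 over the class, and 8 rose in Tconv with a median of 1.20. Hsph1, the HSP110 exchange factor that resets HSP70, changed most. It read 10.76 and 10.92 log2 intensity in Treg at 8 h on arrays 1 and 2, against 8.51 and 7.96 at 0 h, a change of 2.61 ± 0.40 (SE; adjusted p = 0.000134), and 11.10 and 11.26 in Tconv at 8 h, against 8.56 and 8.32 at 0 h, a change of 2.74 ± 0.40 (adjusted p = 2.41e-05). Both arrays at 8 h lay far above both at 0 h in each cell type. Hsp90aa1, the inducible cytosolic HSP90, read 13.05 and 13.11 in Treg at 8 h, against 11.46 and 11.11 at 0 h, and rose by 1.79 ± 0.51 (adjusted p = 0.0244). The Tconv readings were 12.85 and 13.32 at 8 h, against 10.87 and 11.09 at 0 h, a rise of 2.11 ± 0.51 (adjusted p = 0.00368). Stip1, the adaptor that joins HSP70 to HSP90, rose by 1.77 ± 0.35 in Treg and 2.03 ± 0.35 in Tconv. Ahsa1, which speeds the ATPase of HSP90, rose by 1.38 ± 0.33 in Treg and 1.67 ± 0.33 in Tconv. Hspa4, another HSP110 protein, read 10.64 and 10.58 in Treg at 8 h, against 9.63 and 9.51 at 0 h, without overlap, but its change of 1.04 ± 0.45 was not called (adjusted p = 0.168). In Tconv the readings were 10.68 and 11.10 at 8 h, against 9.23 and 9.44 at 0 h, a rise of 1.55 ± 0.45 (adjusted p = 0.013).

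Hspa1a, the stress-inducible HSP70 and the classical marker of heat shock, was not called. It read near the array medians, which lay between 6.46 and 6.71 in mice, and the cluster it shares with Hspa1b was not read. The lack of a call therefore does not show that a heat shock response was absent. Hspa1a read 6.47 and 6.85 in Treg at 8 h, against 6.35 and 6.75 at 0 h. In Tconv it read 6.84 and 6.98 at 8 h, against 6.94 and 6.86 at 0 h. Its arrays overlapped in both cell types, with changes of 0.11 ± 0.25 in Treg (adjusted p = 0.888) and 0.00 ± 0.25 in Tconv (adjusted p = 0.992), and it read between 6.27 and 7.21 at all times in KT3-injected or untreated mice. The HSP40 proteins Dnajb1, Dnajb4 and Dnaja1, which deliver clients to HSP70, were not called at 8 h in either cell type. Dnajb1 changed by 0.57 ± 0.34 in Treg and 0.47 ± 0.34 in Tconv. Hspa8, the HSP70 made without stress, rose by 0.75 ± 0.20 in Treg and 0.83 ± 0.20 in Tconv.

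The CCT ring folds actin, tubulin and other cytosolic proteins, and its subunits rose together. All 7 subunits tested rose in Tconv at 8 h, by 1.36 (Cct4) to 2.07 (Cct3), and 6 of 7 rose in Treg, all but Cct4, which changed by 1.01 ± 0.36 (adjusted p = 0.0839). Cct3 read 11.07 and 10.58 in Treg at 8 h, against 9.38 and 9.23 at 0 h, a change of 1.52 ± 0.39 (adjusted p = 0.0132). Tconv arrays gave 11.70 and 11.29 at 8 h, against 9.66 and 9.20 at 0 h, a change of 2.07 ± 0.39 (adjusted p = 0.000372). Cct8 read 11.25 and 11.21 in Treg at 8 h, against 9.82 and 9.83 at 0 h. The Tconv readings were 11.63 and 11.69 at 8 h, against 9.95 and 9.85 at 0 h. Tcp1 read 11.57 and 11.59 in Treg at 8 h, against 10.26 and 10.19 at 0 h. In Tconv the readings were 11.85 and 12.00 at 8 h, against 10.43 and 10.29 at 0 h. For each of these subunits the 8 h and 0 h arrays were well apart in both cell types.

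The mitochondrial chaperones gave the largest class medians, 1.65 in Treg and 1.81 in Tconv, with 4 of 5 genes called in Treg and all 5 in Tconv. Hspd1 (HSP60) read 11.53 and 11.36 in Treg at 8 h, against 9.27 and 8.99 at 0 h, and rose by 2.32 ± 0.38 (adjusted p = 0.000271). In Tconv it read 11.82 and 12.21 at 8 h, against 9.18 and 9.26 at 0 h, and rose by 2.80 ± 0.38 (adjusted p = 1.05e-05). Hspe1 (HSP10), the lid of that chaperonin, read 11.93 and 11.32 in Treg at 8 h, against 9.87 and 9.38 at 0 h, and rose by 2.00 ± 0.39 (adjusted p = 0.00144). Tconv arrays gave 12.68 and 12.33 at 8 h, against 10.53 and 9.98 at 0 h, a rise of 2.25 ± 0.39 (adjusted p = 0.000154). Hspa9, the HSP70 of the mitochondrial matrix that also pulls in imported chains, read 11.40 and 11.17 in Treg at 8 h, against 9.73 and 9.55 at 0 h. The Tconv readings were 11.85 and 11.98 at 8 h, against 10.16 and 10.04 at 0 h. None of these groups overlapped. Trap1, the mitochondrial HSP90, rose by 0.88 ± 0.25 in Treg (adjusted p = 0.0218) and 1.36 ± 0.25 in Tconv (adjusted p = 0.000218). Dnaja3, the mitochondrial HSP40, rose by 0.79 ± 0.21 in Tconv (adjusted p = 0.00753), with 0.45 ± 0.21 in Treg not called.

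In the ER, 9 of 15 genes rose in Treg at 8 h and 10 rose in Tconv, with class medians of 1.12 and 1.14. The called genes in both cell types were Hspa5 (BiP, the ER HSP70), Calr (a lectin chaperone), Pdia6 (a disulfide isomerase), Sdf2l1 and Dnajb11 (partners of BiP), Hyou1 (the ER HSP110), Creld2, Manf and Xbp1. Canx, the membrane-bound lectin chaperone, changed by 1.17 ± 0.41 in Treg, which was not called (adjusted p = 0.0746), and rose by 1.20 ± 0.41 in Tconv (adjusted p = 0.0361). Creld2 read 9.73 and 9.64 in Treg at 8 h, against 8.13 and 7.72 at 0 h, and rose by 1.76 ± 0.20 (adjusted p = 4.91e-06), the largest ER change in Treg. Pdia6 read 10.78 and 10.38 in Tconv at 8 h, against 9.07 and 8.83 at 0 h, and rose by 1.63 ± 0.29 (adjusted p = 0.000189), the largest ER change in Tconv. Hspa5 read 11.59 and 11.60 in Treg at 8 h, against 10.34 and 10.23 at 0 h. In Tconv the readings were 11.54 and 11.74 at 8 h, against 10.21 and 10.16 at 0 h, without overlap. Hsp90b1 (GRP94, the ER HSP90) read 11.72 and 11.77 in Treg at 8 h, against 10.61 and 10.64 at 0 h. In Tconv it read 11.20 and 11.73 at 8 h, against 9.99 and 10.61 at 0 h; its changes of 1.12 ± 0.53 in Treg and 1.17 ± 0.53 in Tconv were not called with all arrays although the arrays did not overlap; without the Tconv culture array that stood apart both were (adjusted p = 0.0385 in Treg and 0.0178 in Tconv).

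Other ER genes were not called. Dnajb9, an ER HSP40 that XBP1 controls, read 8.11 and 7.64 in Treg at 8 h, against 8.07 and 7.88 at 0 h. Tconv arrays gave 7.15 and 7.56 at 8 h, against 6.93 and 7.91 at 0 h, with overlap in both. Edem1, a lectin that sends misfolded glycoproteins to degradation, read 10.15 and 9.89 in Treg at 8 h, against 10.37 and 10.10 at 0 h. The Tconv readings were 9.48 and 9.48 at 8 h, against 9.86 and 9.68 at 0 h, with overlap in Treg and none in Tconv; its changes were -0.21 ± 0.35 in Treg and -0.29 ± 0.35 in Tconv. Pdia3 and Pdia4, both disulfide isomerases, were not called with all arrays either. From here on, counts from fits that leave out 1 array come without the share of all genes called. The fit without the Tconv culture array that stood apart is the exception. The other counts cannot tell a change in the members from a change in all calls. Leaving out any 1 of the 4 Treg arrays of this comparison gave 9 to 16 called members in place of 24, with 9 without array 1 at 8 h and 9 without array 2 at 0 h. For Tconv the range was 22 to 26.

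**Figure D2:**
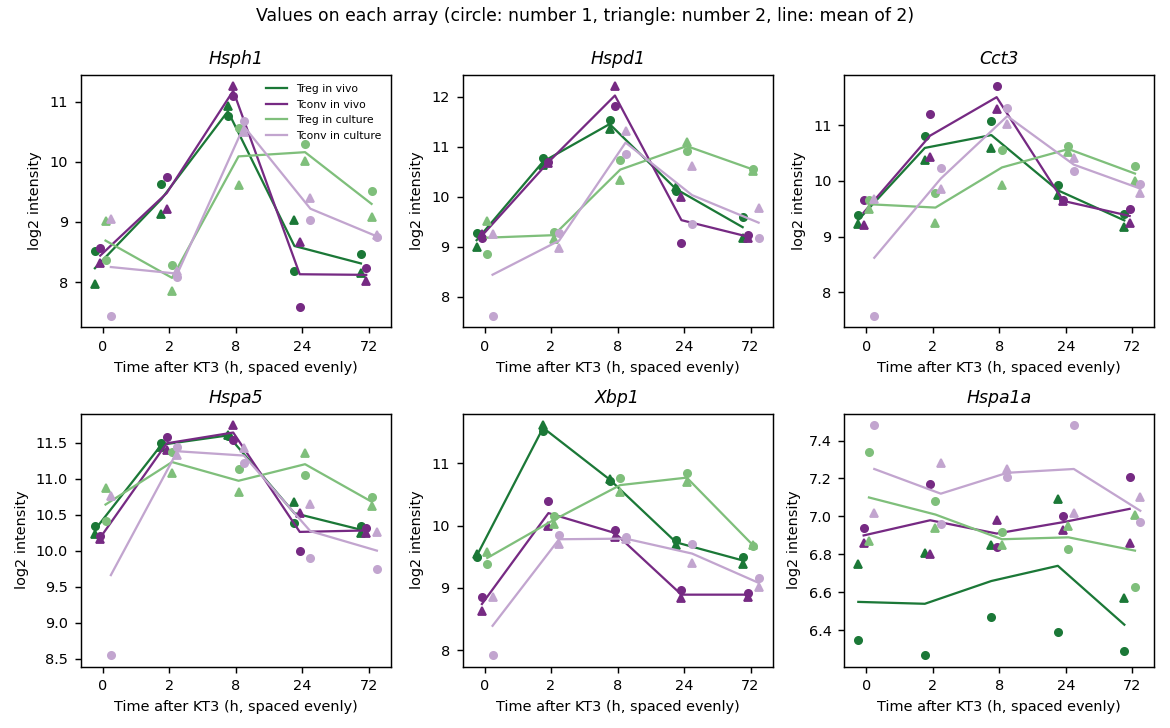
Log2 intensity of Hsph1, Hspd1, Cct3, Hspa5, Xbp1 and Hspa1a on each array at 0, 2, 8, 24 and 72 h in Treg and Tconv, in mice and in culture, times spaced evenly. Hsph1 and Hspd1 stand highest at 8 h in mice in both cell types (Hspd1 11.53 and 11.36 in Treg, 11.82 and 12.21 in Tconv), Xbp1 stands highest at 2 h, and Hspa1a stays between 6.27 and 7.21 in mice, near the array medians.

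The first rise came by 2 h, with Xbp1 in front in Treg and Hspd1 and Xbp1 in Tconv. In Treg 5 of 39 members were called higher at 2 h (5.04% of all genes called higher), namely Xbp1, Hspa9, Hspd1, Cct3 and Cct7, and in Tconv 3 were (3.04% of all genes), namely Hspd1, Xbp1 and Cct3. Xbp1 read 9.49 and 9.54 at 0 h, 11.52 and 11.61 at 2 h, 10.72 and 10.75 at 8 h, 9.77 and 9.69 at 24 h and 9.50 and 9.38 at 72 h in Treg. In Tconv the readings were 8.85 and 8.63 at 0 h, 10.39 and 10.00 at 2 h, 9.93 and 9.82 at 8 h, 8.96 and 8.83 at 24 h and 8.92 and 8.86 at 72 h. In both cell types the 2 h arrays were the highest, the 8 h arrays came next, and the Treg arrays lay above the Tconv arrays at each time. The rise at 2 h was 2.05 ± 0.20 in Treg (adjusted p = 1.91e-07) and 1.46 ± 0.20 in Tconv (adjusted p = 2.92e-05). The clusters read total Xbp1 RNA and do not separate its spliced form.

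Hspd1 had already moved at 2 h, to 10.77 and 10.63 in Treg, against 9.27 and 8.99 at 0 h, and to 10.70 and 10.67 in Tconv, against 9.18 and 9.26 at 0 h, rises of 1.57 ± 0.38 (adjusted p = 0.0098) in Treg and 1.47 ± 0.38 (adjusted p = 0.028) in Tconv. Cct3 rose by 1.28 ± 0.39 in Treg and 1.38 ± 0.39 in Tconv, and Hspa9 by 1.70 ± 0.40 in Treg (adjusted p = 0.00725), where it stood at 11.44 and 11.24. Between 2 and 8 h Creld2 rose in both cell types, by 1.37 ± 0.20 in Treg (adjusted p = 0.00103) and 1.39 ± 0.20 in Tconv (adjusted p = 0.000172). It was the 1 member called higher in that step in Treg (0.233% of all genes). In Tconv 11 members were (6.33% of all genes), led by Hsph1 at 1.70 ± 0.40, Hspe1 at 1.45 ± 0.39 and Hspd1 at 1.33 ± 0.38. The Creld2 arrays at 2 h read 8.40 and 8.24 in Treg, both above both arrays at 0 h. That change of 0.39 ± 0.20 was not called by limma (adjusted p = 0.359). In Tconv they read 8.45 and 8.03 at 2 h, where the mean at 0 h was 8.20. Leaving out 1 array gave 1 to 3 called members at 2 h in Treg, with 1 without array 1 at 2 h or array 2 at 0 h, and 1 or 2 in Tconv, with 2 without array 2 at 2 h. It gave 1 to 11 in Tconv from 2 to 8 h, with 1 without array 1 at 8 h or array 2 at 2 h, and 4 without array 2 at 8 h. Without the Tconv culture array that stood apart, 17 members were higher at 2 h in Treg (7.35% of all genes) and 10 in Tconv (5.07%). From 2 to 8 h, 26 then rose in Tconv (12.6%). In Treg 7 rose (0.652%), led by Creld2, Hsph1 at 1.46 ± 0.34 and Stip1 at 1.19 ± 0.21, and Xbp1 fell by 0.83 on the log2 scale (0.998% of all genes lower).

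By 24 h the levels in mice had come down again. From 8 to 24 h, 6 members fell in Treg (2.21% of all genes called lower) and 27 fell in Tconv (10.9% of all genes called lower). None rose, where 2.63% of all genes in Treg and 8.46% in Tconv were called higher. The median member changed by -0.75 in Treg, with all genes at -0.02, and by -1.23 in Tconv, with all genes at 0.02. Hsph1 fell to 8.18 and 9.03 at 24 h in Treg, against 10.76 and 10.92 at 8 h, a change of -2.24 ± 0.40 (adjusted p = 0.00147). In Tconv it fell to 7.59 and 8.67 at 24 h, against 11.10 and 11.26 at 8 h, a change of -3.05 ± 0.40 (adjusted p = 4.88e-06). The other called falls in Treg were Creld2 (-1.24 ± 0.20), Hyou1 (-1.19 ± 0.21), Xbp1 (-1.01 ± 0.20), Stip1 (-1.29 ± 0.35) and Hspd1 (-1.29 ± 0.38). In Tconv the falls spanned all classes, with 8 of 12 cytosolic, 5 of 7 CCT, 5 of 5 mitochondrial and 9 of 15 ER genes, among them Hspd1 (-2.49 ± 0.38), Hspa9 (-2.19 ± 0.40), Stip1 (-1.94 ± 0.35), Cct3 (-1.85 ± 0.39) and Hyou1 (-1.79 ± 0.21). Leaving out 1 array gave 3 or 4 called members in Treg and 14 to 21 in Tconv, with 14 without array 1 at 24 h. Without the Tconv culture array that stood apart, 22 members fell in Treg (4.35% of all genes).

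At 24 h 0 members were called against 0 h in Treg (0.483% of all genes called; 6 members at an unadjusted p under 0.05 by limma) and 0 in Tconv (2.40% of all genes; 1 member). Both arrays at 24 h lay above both at 0 h for 30 members in Treg, where 21.7% of all genes did, with a median change of 0.37. They did so for 8 members in Tconv, where 23.3% of all genes did, with a median of 0.11. Hspd1 read 10.11 and 10.20 in Treg at 24 h, against 9.27 and 8.99 at 0 h, and 9.07 and 10.00 in Tconv at 24 h, against 9.18 and 9.26 at 0 h; the Tconv arrays overlapped. Without the Tconv culture array that stood apart, 1 member was called in Treg at 24 h, Tcp1 at 0.72 ± 0.16 (0.748% of all genes higher). At 72 h 0 members were called in Treg (0.0241% of all genes; 1 member at an unadjusted p under 0.05) and 0 in Tconv (0.290% of all genes; 0 members), and the medians were 0.10 in Treg and -0.06 in Tconv.

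Against the single rat IgG array at 24 h, 0 members were called in Treg (0.274% of all genes called; 7 members at an unadjusted p under 0.05) and 0 in Tconv (1.47% of all genes; 1 member). In Treg both KT3 arrays lay above the IgG array for 35 of 39 members, where 48.2% of all genes did, with a median difference of 0.53 and 0.10 over all genes. Hspd1 stood at 10.11 and 10.20 in the KT3 Treg arrays and at 8.58 on the IgG array, and Hsph1 at 8.18 and 9.03 against 7.73. In Tconv the median difference was 0.03 and the KT3 arrays lay above the IgG array for 16 members, where 31.9% of all genes did. Each IgG group holds 1 array, so its spread is taken from the other groups. Under that assumption 4 members, Hspd1, Pdia6, Hspa8 and Tcp1, passed in Treg without the Tconv culture array that stood apart (0.974% of all genes). No other IgG array shows how that group varies, so these are not given as rises.

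**Figure D3:**
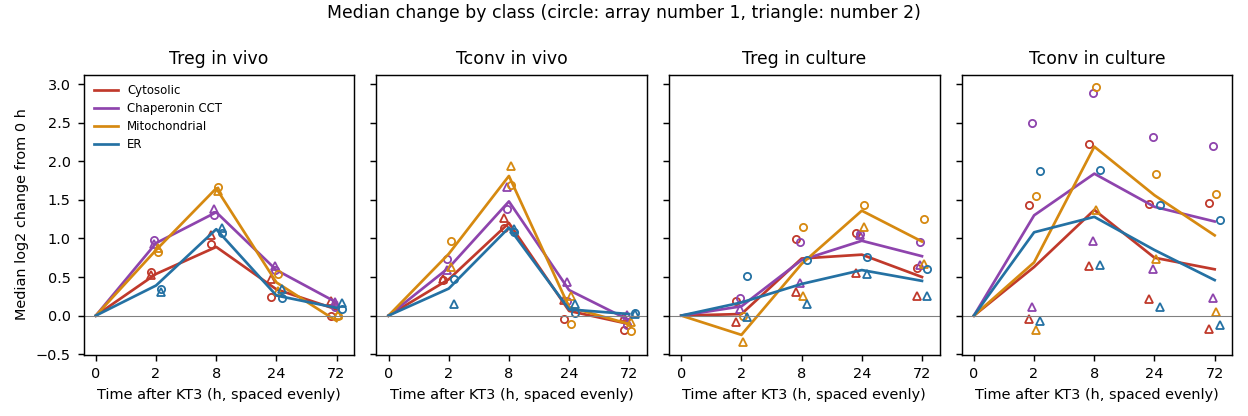
Median log2 fold change from 0 h of the cytosolic, CCT, mitochondrial and ER genes at 2, 8, 24 and 72 h in Treg and Tconv, in mice and in culture, with circles for array 1 and triangles for array 2. In mice each class peaks at 8 h (class medians 0.89 to 1.65 in Treg and 1.14 to 1.81 in Tconv), and in the Tconv culture the circles and triangles lie far apart.

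Between Treg and Tconv from mice few differences were called. Before injection 1 member differed between them (2.58% of all genes were called higher in Treg): Xbp1 read 9.49 and 9.54 in Treg, against 8.85 and 8.63 in Tconv, a difference of 0.78 ± 0.20 (adjusted p = 0.026), which was not called in any of the fits that left out 1 of these 4 arrays. An F-test of whether the changes from 0 h at 2, 8, 24 and 72 h differed between Treg and Tconv in mice called 0 members (0.346% of all genes), and 0 had an unadjusted p under 0.05 by limma. The median member's change was larger in Treg by 0.11 at 2 h, smaller by 0.14 at 8 h (a difference of -0.14), and larger by 0.29 at 24 h and 0.21 at 72 h. A p that misses the threshold does not show that the responses were alike: for Hspd1 at 8 h the rise was 2.32 ± 0.38 in Treg and 2.80 ± 0.38 in Tconv.

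**Figure D4:**
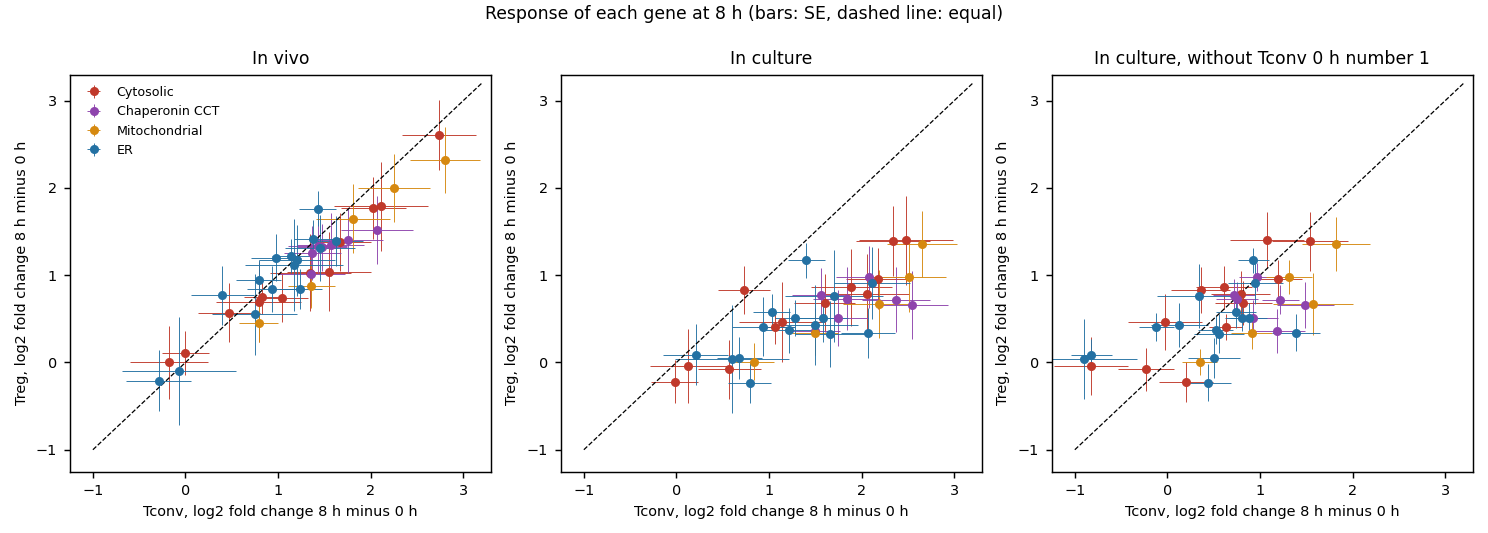
Log2 fold change from 0 h at 8 h of each member in Treg (vertical axis) against Tconv (horizontal axis), in mice, in culture, and in culture without array 1 of Tconv at 0 h, coloured by class, with the line of equal change. In mice the points lie near the line, with medians of 1.17 in Treg and 1.36 in Tconv; in culture with all arrays most lie below it, and without that array they lie on both sides.

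In culture the Tconv result rested on the 0 h array that stood apart. With all arrays, 20, 31, 23 and 8 members were called higher at 2, 8, 24 and 72 h, where 19.5%, 15.7%, 19.4% and 6.65% of all genes were. None was called lower, where 6.80%, 3.22%, 7.48% and 0.901% of all genes were. Without array 1 at 0 h the counts were 1, 19, 1 and 0 higher, where 2.77%, 4.70%, 0.934% and 0.732% of all genes were called higher. Pdia4 at 2 h (2.21% of all genes lower) and Edem1 at 8 h (5.57%) were called lower. Without array 2 at 0 h instead, more members were called at each time. The array that stood apart is then the only one at 0 h. The share of all genes called in that fit is not given, so this is not a result about the members. Leaving out a later array gave 3 (array 1) and 10 (array 2) at 2 h, 11 (array 1) and 7 (array 2) at 24 h and 0 for either at 72 h, and 29 without array 1 at 8 h. Hspd1 read 7.62 and 9.26 at 0 h, 9.28 and 8.97 at 2 h, 10.85 and 11.31 at 8 h, 9.45 and 10.61 at 24 h and 9.17 and 9.78 at 72 h. All later arrays were above the low 0 h array, but those well above the other were the 8 h arrays and array 2 at 24 and 72 h. Hspa4 at 0 h read 6.67 and 9.22 and Hsp90b1 7.49 and 10.20, gaps about as wide as the largest rises in that culture.

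At 8 h in the Tconv culture the median member changed by 1.56 with that array and by 0.75 without it. The 19 members then called higher were 3 cytosolic, 6 CCT, 4 mitochondrial and 6 ER genes. With 1 array left at 0 h, Hspd1 changed by 1.82, Hspe1 by 1.57, Hsph1 by 1.54 and Cct3 by 1.49. Pdia6 changed by 1.39, Hspa9 by 1.31 and Cct8 by 1.22. With all arrays the largest rises were Hspd1 at 2.65 ± 0.38, Cct3 at 2.54 ± 0.39, Hspa9 at 2.51 ± 0.40 and Hsp90aa1 at 2.48 ± 0.51. The step from 2 to 8 h does not use the 0 h arrays: 10 members rose in it (4.56% of all genes), led by Hsph1 at 2.45 ± 0.40 (adjusted p = 0.000199), Hspd1 at 1.96 ± 0.38 and Stip1 at 1.55 ± 0.35. In the same step 1 fell, Dnajb4 by 1.33 on the log2 scale (adjusted p = 0.0457; 5.13% of all genes called lower). Without the 0 h array that stood apart, 20 rose in this step (6.86% of all genes) and 2 fell, Dnajb4 and Edem1 (8.97%). Leaving out 1 array of the step gave 4 to 10 calls, with 4 without array 1 at 8 h, 5 without array 1 at 2 h and 7 without array 2 at 2 h. Hsph1 in that culture read 7.44 and 9.05 at 0 h, 8.09 and 8.19 at 2 h, 10.68 and 10.49 at 8 h, 9.04 and 9.40 at 24 h and 8.75 and 8.78 at 72 h, so its 8 h arrays lay well above both 0 h arrays, and those at 2 and 72 h lay between the 0 h arrays. From 8 to 24 h 1 member fell in the fit of all arrays, Pdia6 by 1.15 on the log2 scale (adjusted p = 0.0202; 0.909% of all genes called lower), and it gave 2 calls without array 2 at 24 h and 0 without any of the other arrays of the step. In the fit without the 0 h array 16 fell and 1, Edem1, rose (2.70% of all genes lower, 7.20% higher). The spread is estimated over all groups together, and the SE of the Hsph1 change in that step was 0.34 without the array and 0.40 with it.

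In the Treg culture most members stood highest at 24 h and few were called. With all arrays, 0 members were called at 2 h (5.64% of all genes called; 2 members at an unadjusted p under 0.05 by limma), 3 at 8 h (4.52% of all genes higher), 9 at 24 h (5.01%) and 3 at 72 h (7.34%), all higher. The medians over the members were 0.12, 0.51, 0.78 and 0.55, with all genes between -0.02 and 0.07. Without the Tconv array that stood apart, which is in none of these groups but enters the shared spread (SE of the Xbp1 change 0.14 without it and 0.20 with it), more members were called. At 2 h 4 were higher (7.53% of all genes) and 1, Pdia4, lower (3.50%); 16 were higher at 8 h (9.00%) and 26 at 24 h (11.3%). At 72 h 15 were higher (12.6%) and 1, Dnajb1, lower (3.78%). The group mean was highest at 24 h for 29 of the 39 members, where 17.8% of all genes were, among them all 7 CCT and all 5 mitochondrial genes, and at 8 h for 1 member, Dnaja1.

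Hspd1 in the Treg culture read 8.85 and 9.51 at 0 h, 9.30 and 9.16 at 2 h, 10.74 and 10.33 at 8 h, 10.91 and 11.10 at 24 h and 10.56 and 10.52 at 72 h. The 2 h arrays lay between those at 0 h, and from 8 h on all arrays lay above both 0 h arrays, with rises of 1.36 ± 0.38 at 8 h (adjusted p = 0.0336), 1.83 ± 0.38 at 24 h (adjusted p = 0.00443) and 1.36 ± 0.38 at 72 h (adjusted p = 0.0224). Hsph1 read 8.37 and 9.02 at 0 h, 8.28 and 7.85 at 2 h, 10.56 and 9.61 at 8 h, 10.29 and 10.02 at 24 h and 9.52 and 9.08 at 72 h. Its 2 h arrays were below both 0 h arrays and it rose by 2.02 ± 0.40 from 2 to 8 h (adjusted p = 0.00252). In that step 2 members rose, the other being Stip1 by 1.32 ± 0.35 (2.92% of all genes). The step gave 10 rises without the Tconv array that stood apart (5.21% of all genes), 0 calls without array 1 at 8 h or array 2 at 2 h, and 1 without array 1 at 2 h. At 24 h the other called genes were Tcp1 (1.39 ± 0.36), Hspa9 (1.36 ± 0.40), Hspe1 (1.36 ± 0.39), Xbp1 (1.29 ± 0.20), Stip1 (1.25 ± 0.35), the ribosome-bound HSP40 Dnajc2 (1.23 ± 0.28) and Creld2 (0.76 ± 0.20), and at 72 h Tcp1 (1.30 ± 0.36) and Sdf2l1 (0.80 ± 0.23). From 8 to 24 h 0 members were called (0.00% of all genes; 1 member at an unadjusted p under 0.05), with a median change of 0.21. Leaving out 1 Treg array gave 1 to 12 called members at 24 h, with 1 without array 1 at 0 h or array 2 at 24 h, and 2 without array 1 at 24 h. At 8 h it gave 1 without array 1 at 0 h or at 8 h, and at 72 h 0 without array 1 at 0 h or at 72 h and 1 without array 2 at 72 h.

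Xbp1 in the Treg culture stood highest at 8 and 24 h: it read 9.39 and 9.57 at 0 h, 10.15 and 10.03 at 2 h, 10.76 and 10.54 at 8 h, 10.84 and 10.70 at 24 h and 9.67 and 9.68 at 72 h. In the Tconv culture it read 7.92 and 8.86 at 0 h, 9.85 and 9.71 at 2 h, 9.81 and 9.78 at 8 h, 9.70 and 9.40 at 24 h and 9.16 and 9.01 at 72 h. All its Tconv arrays from 2 h on lay above both at 0 h. From the higher 0 h array alone, Xbp1 changed by 0.92 at 2 h, 0.93 at 8 h and 0.69 at 24 h. Hspa1a lay within 6.63 to 7.48 in culture over both cell types and all times. Dnajb9 was widely spread at 0 h, 7.16 and 9.21 in Treg and 5.29 and 8.30 in Tconv, and its course in culture cannot be read from these arrays.

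At 0 h in culture 7 members were called higher in Treg than in Tconv with all arrays (8.68% of all genes), from Pdia3 (1.61), Dnaja1 (1.45) and Ptges3 (1.36) to Xbp1 (1.09), and 0 without Tconv array 1 (1.14% of all genes). The count was higher without Tconv array 2, which leaves the array that stood apart as the only Tconv array. It was also higher without Treg array 1 and lower without Treg array 2. Shares of all genes in these fits are not given. The F-test of the Treg against the Tconv response in culture called 2 members with all arrays (3.65% of all genes), Sdf2l1 (adjusted p = 0.0223) and Pdia6 (adjusted p = 0.0298). Both had a smaller change in Treg than in Tconv at 8 h, with differences of -1.02 ± 0.33 for Sdf2l1 and -1.73 ± 0.41 for Pdia6. Pdia6 read 9.72 and 9.25 in Treg at 8 h, against 10.38 and 10.49 in Tconv at 8 h, and 9.26 and 9.02 in Treg at 0 h, against 7.69 and 9.04 in Tconv at 0 h. Without Tconv array 1 at 0 h the test called 12 members (7.35% of all genes), Pdia6 and Sdf2l1 among them. That fit leaves 1 Tconv array at 0 h, so its calls are not given as differences between the cell types. The other members called all had a more positive change in Treg at 24 h in that fit. For Tcp1 the difference was 0.96 at 24 h and 1.11 at 72 h, and for Hspa9 1.00 at 24 h and 1.01 at 72 h. The number of calls varied widely when single arrays were left out, and was largest without Tconv array 2 at 0 h. It was 0 without array 1 at 72 h of either cell type, Tconv array 1 at 8 h, Tconv array 2 at 72 h or Treg array 2 at 8 h, and 1 without Tconv array 2 at 8 h or Treg array 1 at 0 or 8 h.

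The Treg responses of mice and culture were compared in the same way, and the F-test called 12 of the 39 members (10.9% of all genes): Hsph1, Dnajc2, Stip1, Cct7, Hspa9, Hspd1, Hspe1, Trap1, Sdf2l1, Creld2, Hyou1 and Xbp1, which are 3 of 12 cytosolic, 1 of 7 CCT, 4 of 5 mitochondrial and 4 of 15 ER genes. The median member's change was larger in mice by 0.52 at 2 h and 0.48 at 8 h, and the difference was -0.33 at 24 h and -0.41 at 72 h, with all genes between -0.06 and -0.02. Xbp1 rose more in mice at 2 h, by 1.44 ± 0.28, and its difference at 24 h was -1.08 ± 0.28 (adjusted p = 2.08e-05 over the times). For Hsph1 the difference was 1.78 ± 0.57 at 2 h and 1.21 ± 0.57 at 8 h (adjusted p = 0.00331). For Hspd1 it was 1.52 ± 0.54 at 2 h and -1.10 ± 0.54 at 72 h (adjusted p = 0.00384), and for Creld2 1.18 ± 0.29 at 8 h (adjusted p = 0.00749). Without the Tconv culture array that stood apart 27 members were called (18.2% of all genes), and leaving out 1 Treg array gave 3 to 12, with 3 without culture array 2 at 8 h. It gave 5 without mouse array 1 at 8 h, mouse array 2 at 72 h or culture array 1 at 72 h, 6 without mouse array 1 or culture array 2 at 2 h, and 7 without mouse array 2 or culture array 1 at 24 h.

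For Tconv the same test called 3 members (6.37% of all genes), Trap1 (adjusted p = 0.0322), Hyou1 (adjusted p = 0.0332) and Hsph1 (adjusted p = 0.0373), and 12 without culture array 1 at 0 h (9.54% of all genes). With all arrays the differences at 24 h were -1.09 ± 0.35 for Trap1 and -1.28 ± 0.57 for Hsph1. Without that array 1 Tconv culture array is left at 0 h. The differences were then 1.95 for Hsph1, 1.60 for Hspd1 and 1.17 for Stip1 at 2 h, and -0.48 for Hsph1 at 24 h. Left-out single arrays changed the number of calls widely, with the most calls without culture array 2 at 0 h. They gave 0 without mouse array 1 at 0, 2, 8 or 24 h, either culture array at 2 h, culture array 2 at 24 h or culture array 1 at 72 h, and 1 without either mouse array at 72 h or culture array 1 at 24 h. The mice of both settings also differed in age and, for array 2, in sex, which cannot be told apart from the setting.

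Other genes of the same pathways were counted in the same way, and the largest list medians in Tconv at 8 h in mice were those of prefoldin with Cct6a (1.19), mitochondrial import (0.95) and cochaperones (0.81). Of 61 listed genes (cochaperones, prefoldin and Cct6a, mitochondrial import, ER stress sensors and effectors, ER translocation and oxidative folding) 59 were tested. At 8 h in mice 7 of the 59 rose in Treg and 0 fell, where 6.36% of all genes rose, with a median of 0.36 beside -0.02 over all genes. In Tconv 24 rose and 2 fell, where 14.4% of all genes rose and 6.54% fell, with a median of 0.57 beside -0.06 over all genes. Fkbp4, an HSP90 immunophilin, rose by 1.60 ± 0.33 in Treg and 1.88 ± 0.33 in Tconv. Cct6a, the subunit of CCT outside the member list, rose by 1.65 ± 0.44 in Treg and 1.68 ± 0.44 in Tconv. Hsf2, a paralogue of Hsf1, rose by 1.39 ± 0.35 in Treg and 1.23 ± 0.35 in Tconv from mice, and by 2.40 ± 0.35 in Treg at 24 h in culture. Timm50, a receptor of the inner membrane translocase, rose at 2 h by 0.92 ± 0.21 in Treg and in Tconv, and at 8 h by 1.19 ± 0.21 in Treg and 1.57 ± 0.21 in Tconv.

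Of the 14 ER stress sensors and effectors tested in mice, 1 rose in Treg at 8 h (6.36% of all genes), and 2 rose (14.4%) and 1 fell (6.54%) in Tconv, shares close to those of all genes. At 2 h 0 were called in Treg (5.04% of all genes called higher; 4 at an unadjusted p under 0.05 by limma), and in Tconv 2 rose (3.04% of all genes), Atf6 and Atf4, and 1 fell, Trib3. Of all genes called in Tconv at 2 h in mice, 86.7% were higher. Atf4, the translation-controlled factor of the PERK branch, rose at 8 h by 0.86 ± 0.24 in Treg and 1.02 ± 0.24 in Tconv, and in Tconv at 2 h by 0.90 ± 0.24 (adjusted p = 0.0347). Atf6, the ER-bound sensor, rose in Tconv by 1.36 ± 0.24 at 2 h and 1.19 ± 0.24 at 8 h, with 0.68 ± 0.24 at 2 h in Treg not called (adjusted p = 0.112). Trib3, an inhibitor that ATF4 and CHOP induce, fell in Tconv by 0.89 at 2 h (adjusted p = 0.0105) and by 0.76 at 8 h on the log2 scale. Ddit3, which encodes CHOP, changed at 8 h by -0.05 ± 0.18 in Treg and -0.04 ± 0.18 in Tconv. Herpud1, a degradation factor induced by ER stress, changed at 8 h by -0.03 ± 0.25 in Treg and -0.28 ± 0.25 in Tconv. Neither Ddit3 nor Herpud1 was called. In the Treg culture Ern1, which encodes IRE1, rose by 1.53 ± 0.19 at 2 h (adjusted p = 3.34e-06), while in mice it changed by 0.41 ± 0.19 in Treg at 2 h and was not called. Fkbp4, Atf4, Trib3, Ddit3 and Herpud1 were named after their values were seen.

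For 6 members more than 1 cluster carried the symbol. Hspd1 changed by 2.51 and 2.32 in Treg and by 2.94 and 2.80 in Tconv at 8 h in mice on its 2 clusters, and the 3 clusters of Hsp90aa1 by 1.74 to 1.79 in Treg and 2.05 to 2.21 in Tconv. The 3 clusters of Hspa8 changed by 0.75 to 0.78 in Treg, but the dimmest was not called there (0.78 ± 0.30, adjusted p = 0.108), and in the Treg culture at 8 h it changed by 0.13 ± 0.30, against 0.41 ± 0.20 on the cluster used. Dnaja1 changed by 0.69 ± 0.46 and 0.44 ± 0.34 in Treg on its clusters, neither called. Clusters of other places in the genome with the same symbol may read processed copies of these genes, so the part of each copy cannot be told apart.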

How the data were processed

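The data were microarray values of 42 samples, sorted Treg and Tconv of NOD mice. Per the submitters' processing notes and the series' design text, the authors summarised the arrays by RMA and deposited linear-scale intensity per transcript cluster. The values were used on the log2 scale with no further normalization; array medians lay between 87.6 and 116.4. Of 24922 clusters, 21425 carried 1 symbol in the platform annotation, 1399 several and 2098 none listed here. The cluster of highest mean stood for each of 19752 genes, and the 12425 genes brighter than the median of the array on 2 or more arrays entered the tests. A single limma model (limma 3.58.1, R 4.3.3) of 22 group means over 42 arrays gave moderated tests with Benjamini-Hochberg adjustment over all tested genes, called under 0.05, and F-tests over the 4 times; ± is the SE of the fit. Because 1 array stood apart, each result that rests on it is given with and without it. The script was tested on simulated data. The members and lists were chosen with earlier results of these data known. Named were the members with the widest range of group means in each class, the called members with the largest changes in each comparison, and up to 3 called genes per pathway list. Alternatives tried were a replicate block within each setting and, added after seeing the data, within each cell type and setting, quantile normalization, median centring, no filter on dim genes, and leaving out arrays. The number of arrays limits the precision. Promoter windows were searched with Python 3.11.15. Hsp90ab1, Hsf1 and Hspa1b are not analysed here.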

Additional observations from a re-analysis of the deposited data

Results flagged for a closer look

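The results below are those in which the response of a member differed between cell types or settings by an F-test over the 4 times after 0 h, with the p adjusted over all genes tested. In culture, the Treg and Tconv responses differed for Sdf2l1 (adjusted p = 0.0223), a partner of BiP, and Pdia6 (adjusted p = 0.0298), a disulfide isomerase. These were 2 of 39 members, where 3.65% of all genes were called. Between mice and culture, the Tconv responses differed for Trap1 (adjusted p = 0.0322), Hyou1 (adjusted p = 0.0332) and Hsph1 (adjusted p = 0.0373). These were 3 of 39 members, where 6.37% of all genes were called. Both of these tests include array 1 of the Tconv culture at 0 h, which stood apart. Their counts changed when single arrays were left out, and results without that array are given above. The Treg responses of mice and culture differed for Xbp1 (adjusted p = 2.08e-05), Hsph1 (adjusted p = 0.00331), Hspd1 (adjusted p = 0.00384), Creld2 (adjusted p = 0.00749), Hyou1 (adjusted p = 0.0177), Stip1 (adjusted p = 0.0249), Cct7 (adjusted p = 0.0276), Sdf2l1 (adjusted p = 0.0279), Hspe1 (adjusted p = 0.0337), Hspa9 (adjusted p = 0.0352), Trap1 (adjusted p = 0.0452) and Dnajc2 (adjusted p = 0.049). These Treg calls were 12 of 39 members, where 10.9% of all genes were called. Among the mitochondrial chaperones the difference in Treg was largest for Hspd1 at 2 h, 1.52 ± 0.54, and for Hspe1 at 8 h, 1.33 ± 0.55.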

How the results depend on the processing

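The counts of called members moved by over 1.5 times as follows. Counts in this section, also those with arrays left out, are given without the share of all genes called in that setting. They cannot tell a change in the members from a change in all calls. For the fit without array 1 of the Tconv culture at 0 h that share is given above. With the replicate block they were 8 for Treg from mice at 2 h (against 5), 3 for Treg from mice from 2 to 8 h, 15 and 5 for the Treg culture at 24 and 72 h, 4 for the Tconv culture from 8 to 24 h and 14 between Treg and Tconv at 0 h in culture. The labels do not say that a number marks a shared animal. Deviations of same-numbered Treg and Tconv arrays at the same time correlated at a median of 0.17 in mice (0.02 to 0.32) and 0.23 in culture (-0.02 to 0.65). Between times within a cell type they correlated at 0.65 to 0.78 in Tconv and 0.41 to 0.70 in Treg from mice, where the number largely coincides with the sort, and at -0.13 to 0.71 in Tconv and -0.39 to 0.60 in Treg from culture. With a replicate block within each cell type and setting, chosen after seeing the data, the counts were 10, 1 for Treg from mice at 2 and 24 h, 6 and 13 for its steps from 2 to 8 and 8 to 24 h, 6, 20 and 8 for the Treg culture at 8, 24 and 72 h and 6 from 2 to 8 h, 17 for the Tconv culture at 72 h and 17 and 6 for its steps, 20 between Treg and Tconv at 0 h in culture, 4 for their responses in culture and 9 for mice against culture in Tconv. Either block kept all 137 named calls. With quantile normalization the counts were 9 for Treg from mice at 2 h, 6 from 2 to 8 h and 12 from 8 to 24 h; 13, 14 and 5 for the Tconv culture at 2, 24 and 72 h, 22 from 2 to 8 h and 6 from 8 to 24 h; 1 for the Treg culture at 2 h and 7 from 2 to 8 h; and 7 for mice against culture in Tconv. With median centring they were 3 for Treg from mice at 2 h, 1 for the Treg culture from 2 to 8 h, 11 between Treg and Tconv at 0 h in culture, 1 for their responses in culture, and 4 and 0 for mice against culture in Treg and Tconv. With no filter they were 3 for Treg from mice at 2 h and 3 for the Tconv culture at 72 h. Without array 1 of the Tconv culture at 0 h they were 17, 1 for Treg from mice at 2 and 24 h, 8 and 22 for its steps from 2 to 8 and 8 to 24 h, 10 for Tconv from mice at 2 h and 26 from 2 to 8 h, 4 for KT3 against IgG in Treg, 5, 16, 26 and 16 for the Treg culture at 2, 8, 24 and 72 h and 10 from 2 to 8 h, 2, 20, 1 and 0 for the Tconv culture at these times and 22 and 17 for its steps, 0 between Treg and Tconv at 0 h, 12 for their responses in culture, and 27 and 12 for mice against culture in Treg and Tconv. Ptges3 in the Tconv culture at 24 h was -0.03 without that array, 2.53 without array 2 at 0 h and 1.25 with both; the cause was not tested. Of the 137 named calls 129 were kept with median centring, 122 with quantile normalization, 121 with no filter and 102 without that array. Quantile normalization gave the Tconv culture at 2 h a median over all genes of -0.11 and over members of 0.44, with 47.2% of calls higher, against 74.2% as reported.

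Leaving out 1 array at a time gave, for mice, 1 to 3 (Treg) and 1 to 2 (Tconv) at 2 h, 9 to 16 and 22 to 26 at 8 h, 1 to 1 and 1 to 11 from 2 to 8 h, 3 to 4 and 14 to 21 from 8 to 24 h, and 0 to 0 at 24 h, at 72 h, against IgG and between cell types at 0 h. For culture it gave 0 to 0, 1 to 4, 1 to 12 and 0 to 4 (Treg) and 2 to 34, 20 to 38, 1 to 36 and 0 to 34 (Tconv) at the 4 times, 0 to 2 and 4 to 10 from 2 to 8 h, 0 to 0 and 0 to 2 from 8 to 24 h, and 0 to 33 between cell types at 0 h. The F-tests gave 0 to 0 in mice, 0 to 36 in culture, and 3 to 12 (Treg) and 0 to 35 (Tconv) for mice against culture.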
